A study of Mus musculus castaneus and Mus musculus domesticus and Mus musculus with 11 samples.

Results

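Striated muscle genes were followed in mouse RNA libraries labelled motor neuron. The 10 genes are Myog, Myh3, Acta1, Actc1, Des, Tnnt1, Tnnt2, Tnni1, Myl1 and Myl4, taken by symbol and matched by Ensembl gene ID, and all 10 were found among the 27071 genes of the deposited count matrix. The cells came from 3 mouse backgrounds: a CASTx129 cross (129CAS in the titles, here the hybrid), the wild-derived CAST/EiJ (here CAST) and the laboratory strain 129S6/SvEv (here 129). Each line had 3 libraries of polyadenylated RNA, with no treatment, time point or allele given beyond the strain. The labels do not say how many clones or separate cultures stand behind the 3 libraries of a line, so p-values reflect the spread among these libraries alone, which may be technical.

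Striated muscle contracts when myosin heads on thick filaments pull on actin filaments. Troponin on the actin filament makes this depend on calcium, and desmin filaments tie neighbouring contractile units together. Skeletal muscle is switched on by a family of myogenic transcription factors that includes Myog, and embryonic skeletal muscle first uses a set of isoforms, among them Myh3, Actc1, Tnnt2 and Myl4, that are shared with embryonic heart or later give way to adult forms. Motor neurons are the cells that innervate skeletal muscle and are not themselves known for these contractile genes.

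Most of the muscle genes were read at low levels, with Des and Acta1 above the rest. The mean level was highest in 129 for 8 of the 10 genes, highest in the hybrid for the other 2 (Tnnt1 and Myl4), and highest in CAST for none. Against 129, the hybrid had less Myh3, the embryonic myosin heavy chain, and this was the single difference among the 3 comparisons that passed the edgeR threshold. Myh3 averaged 1.52 ± 0.288 CPM in the hybrid and 10.7 ± 6.73 CPM in 129 (SD, n = 3 each; log2 fold change −2.81 ± 0.52, SE, edgeR adjusted p = 0.0106). In CAST against 129 all 9 tested muscle genes had negative log2 fold changes, as did 6922 of all 14839 tested genes, and none passed. Levels of the 9 genes were correlated over the libraries, so their signs are not separate results. CPM are read counts per 1e6 counts of the TMM-scaled library, and the threshold is a Benjamini-Hochberg adjusted p of 0.05 over 14839 tested genes.

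Total counts ran from 7763077 to 14502335 in the hybrid, from 11167254 to 16374911 in CAST and from 16763198 to 18167577 in 129. The libraries hybrid 2 and CAST 1 stood apart in how expression depended on transcript length. For each doubling of exon length, log2 expression relative to the other libraries shifted by −0.603 in hybrid 2, −0.495 in CAST 1 and −0.246 in hybrid 3 (14830 genes). The remaining 6 libraries lay at 0.0659 to 0.307. Every hybrid library lay below every 129 library, at 0.0659 or less against 0.255 or more. In the hybrid against 129, length dependence and line therefore cannot be told apart. Long transcripts were thus read relatively less in hybrid 2 and CAST 1, and hybrid 2 was also the shallowest library. Of the 10 muscle genes, 9 had their highest hybrid value in hybrid 2 and 7 had their highest CAST value in CAST 1. The part of transcript length and depth in these highs was not tested. No pair of replicates agreed within sampling noise (chi-square per gene from 39.9 to 429).

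The 10 genes together took from 0.00237% to 0.0252% of counts in the hybrid, from 0.00211% to 0.00509% in CAST and from 0.00582% to 0.0259% in 129. Des and Acta1 made up most of that sum, between 51.0% and 94.5% of it in every library. The remaining 8 genes summed to 5.09, 22.6 and 6.50 CPM in hybrid 1, 2 and 3, to 14.6, 7.69 and 10.04 CPM in CAST 1, 2 and 3, and to 44.7, 15.8 and 23.6 CPM in 129 1, 2 and 3. Per kilobase of exon, 8 of the 10 genes in the hybrid, 9 in CAST and 8 in 129 lay below the median of the tested genes, which was 5.30, 5.59 and 5.50 CPM per kilobase in these lines. Acta1 was the gene above that median in every line, and Des was above it in the hybrid and 129. In RNA from a whole culture, fewer cells of a type and less RNA per cell cannot be told apart.

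**Figure D1:**
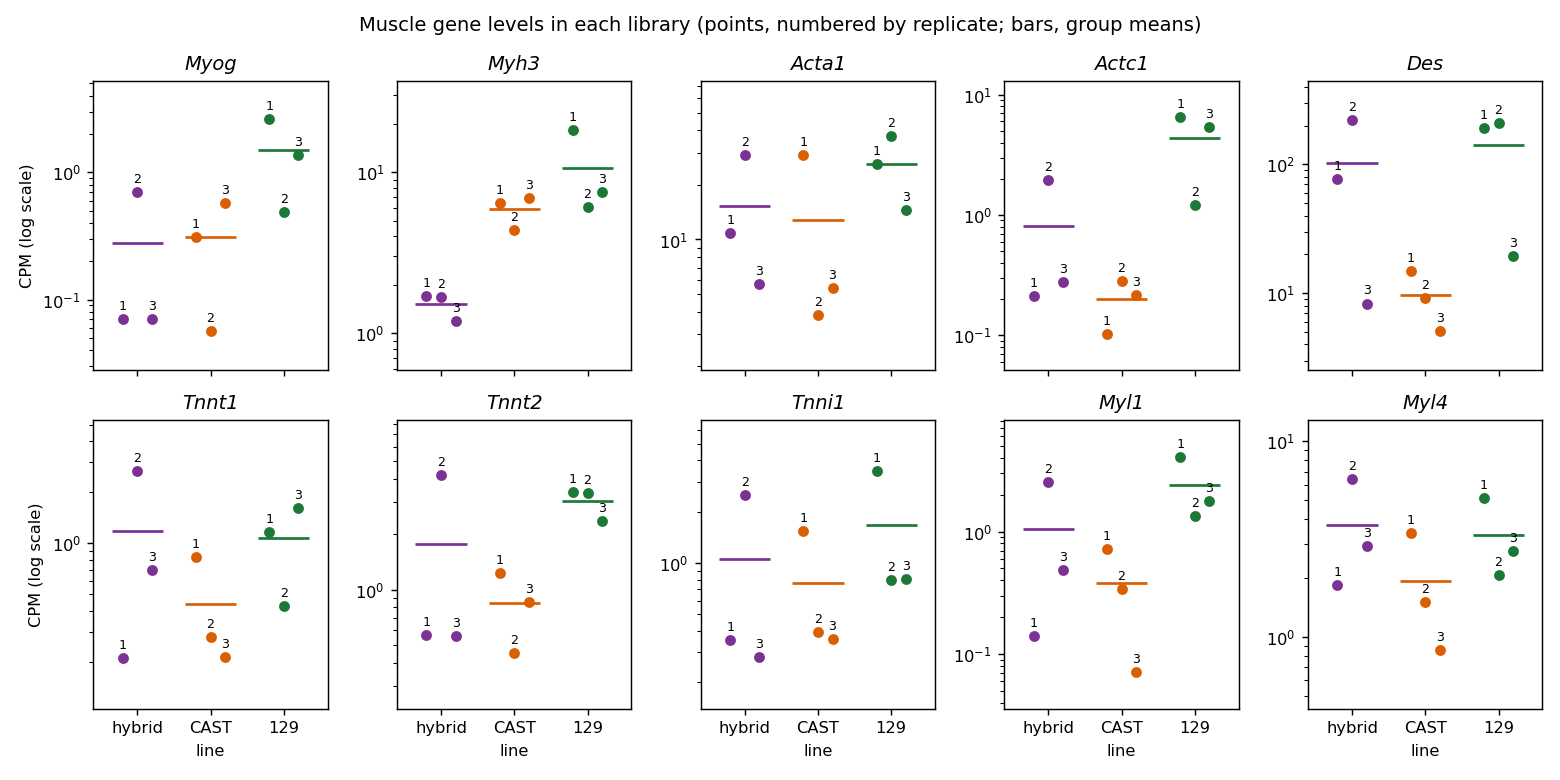
Level of each of the 10 muscle genes (CPM, log axis, 1 panel per gene) in the hybrid, CAST and 129 libraries; points are libraries numbered by replicate and bars are group means. Myh3 lay between 1.19 and 1.70 CPM in the hybrid, below all CAST and 129 libraries, while hybrid 2 was the highest hybrid library for the other 9 genes.

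Myog (ENSMUSG00000026459, chromosome 1, 134289989 to 134292548, GRCm38), which encodes myogenin, the transcription factor that drives differentiation of myoblasts, was the member below the filter on low counts. It had 1, 5 and 1 counts in hybrid 1, 2 and 3, 3, 1 and 8 counts in CAST 1, 2 and 3, and 47, 8 and 24 counts in 129 1, 2 and 3. That is 0.280 ± 0.363 CPM in the hybrid, 0.313 ± 0.259 CPM in CAST and 1.49 ± 1.07 CPM in 129 (SD, n = 3 each). The 129 libraries 1 and 3 were higher than every other library, and 129 2 lay within the range of the hybrid and CAST. Myog therefore has no place in the tests below. Without the filter its log2 fold change was −2.67 ± 1.12 in the hybrid against 129 and −2.27 ± 1.07 in CAST against 129 (SE, edgeR adjusted p = 0.215 and 0.430).

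Myh3 (ENSMUSG00000020908, chromosome 11, 67078300 to 67102291) encodes the myosin heavy chain of embryonic skeletal muscle. It was called lower in the hybrid than in 129 and was not called against CAST. It stood at 1.70, 1.68 and 1.19 CPM in hybrid 1, 2 and 3, at 6.40, 4.38 and 6.88 CPM in CAST 1, 2 and 3, and at 18.4, 6.10 and 7.53 CPM in 129 1, 2 and 3. Every hybrid library was below every CAST and 129 library, and CAST and 129 overlapped. This order rests on 53 counts in the hybrid, 236 in CAST and 562 in 129. Of the 9 tested muscle genes, 1 was called lower in the hybrid than in 129 (1.6% of all tested genes were) and 0 higher (5.41% were). The Myh3 libraries of these 2 lines also did not overlap, as was so for 16.9% of all tested genes in that direction and 20.5% in the other. Between the hybrid and CAST, 8.57% of all tested genes did not overlap and were lower in the hybrid, as Myh3 was, and 10.7% were higher. The Myh3 call ended without hybrid 3 (−2.67 ± 0.64 on the log2 scale, adjusted p = 0.0516 by edgeR) and held without each other single library, and without both CAST 1 and hybrid 2 (−2.88, adjusted p = 0.0358). Without 129 1, the library with most Myh3, the difference was −2.18 (adjusted p = 0.0344). Myh3 has 6057 exonic bases, and the part of transcript length in its difference was not tested. Over all 17 alternatives, the exon length offset included, that difference lay between −3.1 and −2.18. Against CAST the log2 value was −1.95 ± 0.51 (SE), which edgeR did not call (adjusted p = 0.0599; 0.0327 without 129 1, and 0.00775 with DESeq2).

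Myh3 lies in a row of skeletal myosin heavy chain genes on chromosome 11 whose coding sequences are partly identical, which bears on how its few reads were assigned. Of the 5943 stretches of 50 bases in its longest coding transcript, 288 (4.85%) also occur in Myh1, Myh2, Myh4, Myh8 or Myh13. The longest shared stretch is shown here, with the bases found unchanged in Myh13 in capitals and 12 further bases of Myh3 on each side; it lies at coding bases 5260 to 5450 of Myh3, chr11:67099975-67100961 of GRCm38, plus strand, across an exon junction.
Myh3: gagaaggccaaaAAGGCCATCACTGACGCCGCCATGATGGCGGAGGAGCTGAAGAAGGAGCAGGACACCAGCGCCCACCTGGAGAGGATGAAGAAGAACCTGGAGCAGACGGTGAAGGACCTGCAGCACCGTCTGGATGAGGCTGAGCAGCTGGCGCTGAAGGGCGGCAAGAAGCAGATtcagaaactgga
The shared run is 167 bases long. Myh13 itself had 28 counts over all 9 libraries, and Myh1, Myh2, Myh4 and Myh8 had 130, 91, 60 and 938. In the hybrid, CAST and 129, Myh1 had 0, 10 and 120 counts, Myh2 18, 43 and 30, and Myh4 14, 7 and 39. Myh8 had 437, 182 and 319, with its highest mean in the hybrid and 273 counts in hybrid 3. For Myh8 edgeR called neither hybrid comparison (adjusted p = 0.539 against CAST and 0.564 against 129). How reads with several matches were handled is not stated in the sources used here.

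Actc1 (ENSMUSG00000068614, chromosome 2, 114047282 to 114053548) encodes the actin of heart and embryonic skeletal muscle, and Acta1 (ENSMUSG00000031972, chromosome 8, 123891769 to 123894751) that of adult skeletal muscle. Actc1 was nearly absent from CAST. It stood at 0.212, 1.96 and 0.280 CPM in hybrid 1, 2 and 3, at 0.103, 0.281 and 0.215 CPM in CAST 1, 2 and 3, and at 6.50, 1.22 and 5.34 CPM in 129 1, 2 and 3. All 129 libraries were above all CAST libraries, while hybrid 2 was above 129 2. The CAST value rests on 9 counts, against 230 in 129. The log2 fold change of Actc1 was −4.33 ± 1.04 in CAST against 129 (SE, edgeR adjusted p = 0.0982), the lowest adjusted p among the muscle genes there. It passed in that comparison without hybrid 2 (−4.36, adjusted p = 0.0447), with an exon length offset (−4.71, 0.0375) and with DESeq2 (−4.43, 7.97e-04).

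Actc1 differed between the hybrid and 129 by −2.53 ± 0.94 on the log2 scale (SE, adjusted p = 0.162 by edgeR). Without hybrid 2 it was −4.09 (adjusted p = 0.0380), and the same value of −4.09 was found without both CAST 1 and hybrid 2 (adjusted p = 0.0327). Between the hybrid and CAST the log2 fold change was 1.80 ± 1.05 (SE, adjusted p = 0.501), 0.26 without hybrid 2 (0.957), and 0.02 without both of those libraries (0.996).

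Acta1 was read more than Actc1 in every library and varied as much within lines as between them. It stood at 10.9, 29.2 and 5.66 CPM in hybrid 1, 2 and 3, at 29.1, 3.82 and 5.38 CPM in CAST 1, 2 and 3, and at 26.1, 37.4 and 14.5 CPM in 129 1, 2 and 3. The highest hybrid and CAST libraries, hybrid 2 and CAST 1, lay within the range of 129. No comparison passed, with log2 fold changes of 0.26 ± 0.84 in the hybrid against CAST, −0.78 ± 0.84 in the hybrid against 129 and −1.03 ± 0.84 in CAST against 129 (SE, edgeR adjusted p = 0.940, 0.565 and 0.550). Without both CAST 1 and hybrid 2 these were 0.89, −1.65 and −2.54 (adjusted p = 0.440, 0.0893 and 0.0785).

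The alpha-actins are near relatives, and one more of them, Acta2 of smooth muscle, was far more abundant, at 3769 ± 3188 CPM in the hybrid, 2419 ± 1431 CPM in CAST and 2332 ± 1430 CPM in 129 (SD, n = 3 each). Their first 90 coding bases, starting at the start codon, show how a read tells them apart; capitals mark bases that differ from Acta1.
Acta1: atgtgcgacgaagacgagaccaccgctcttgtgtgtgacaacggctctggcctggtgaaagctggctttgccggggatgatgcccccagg
Actc1: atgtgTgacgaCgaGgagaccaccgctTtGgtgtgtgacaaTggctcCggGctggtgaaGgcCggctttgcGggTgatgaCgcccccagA
Acta2: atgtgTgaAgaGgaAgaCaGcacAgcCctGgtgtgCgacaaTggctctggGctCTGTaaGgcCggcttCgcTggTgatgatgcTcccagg
These stretches lie on the minus strand in 1 exon each, at chr8:123893608-123893697 for Acta1, chr2:114051942-114052031 for Actc1 and chr19:34252464-34252553 for Acta2 (GRCm38, GENCODE transcripts). Against Acta1, Actc1 differs at 14 and Acta2 at 22 of these bases. Over the 1131 coding bases without the stop codon Acta1 is 86.3% identical to Actc1 and 85.4% identical to Acta2, and no run longer than 29 bases is shared at the same position with either. No stretch of 50 bases of Actc1 was found in another gene, and the 31 such stretches of Acta1 (2.22%) that were found elsewhere match cytoplasmic actin genes and pseudogenes, not Actc1 or Acta2. Differences of CAST or 129 from the reference sequence were not examined.

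Des (ENSMUSG00000026208, chromosome 1, 75360329 to 75368579) encodes desmin, the intermediate filament protein of all muscle types, smooth muscle included. It was the most abundant of the 10 genes per kilobase in the hybrid and 129, and in CAST it came after Acta1. Des stood at 76.4, 222 and 8.31 CPM in hybrid 1, 2 and 3, at 14.97, 9.10 and 5.09 CPM in CAST 1, 2 and 3, and at 191, 210.4 and 19.4 CPM in 129 1, 2 and 3. Every CAST library was below every 129 library, and the hybrid spanned both. The log2 fold change was −3.85 ± 1.19 in CAST against 129, 3.39 ± 1.17 in the hybrid against CAST and −0.46 ± 1.06 in the hybrid against 129 (SE, edgeR adjusted p = 0.188, 0.161 and 0.799). DESeq2 called it lower in CAST against 129 (adjusted p = 0.00420) and higher in the hybrid against CAST (0.00870). The hybrid against CAST value was 2.18 without hybrid 2 (edgeR adjusted p = 0.464), 2.62 without both CAST 1 and hybrid 2 (0.329) and 2.48 with the replicate block (0.192). Without hybrid 3 the value in the hybrid against 129 turned to 0.07 (edgeR adjusted p = 0.971).

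The troponins Tnnt1 (chromosome 7, 4504570 to 4516382), Tnnt2 (chromosome 1, 135836354 to 135852260) and Tnni1 (chromosome 1, 135779434 to 135810989) regulate the thin filament. Tnnt1 and Tnni1 are the troponin T and troponin I of slow skeletal muscle, and Tnnt2 is cardiac troponin T, also used by embryonic skeletal muscle. Tnnt2 stood at 0.566, 4.19 and 0.559 CPM in hybrid 1, 2 and 3, at 1.24, 0.449 and 0.860 CPM in CAST 1, 2 and 3, and at 3.39, 3.35 and 2.36 CPM in 129 1, 2 and 3. All CAST libraries lay below all 129 libraries, and hybrid 2 was the highest of all. Its log2 fold change in CAST against 129 was −1.85 ± 0.82 (SE, edgeR adjusted p = 0.342). Between the hybrid and 129 it was −0.84 ± 0.80 (adjusted p = 0.522), and −2.41 and called without both CAST 1 and hybrid 2 (adjusted p = 0.0341). Against CAST, the hybrid value of 1.02 ± 0.84 turned to −0.51 without hybrid 2 (adjusted p = 0.687 and 0.832).

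Tnnt1 stood at 0.212, 2.65 and 0.699 CPM in hybrid 1, 2 and 3, at 0.826, 0.281 and 0.215 CPM in CAST 1, 2 and 3, and at 1.17, 0.427 and 1.61 CPM in 129 1, 2 and 3. Tnni1 stood at 0.354, 2.52 and 0.280 CPM in the hybrid libraries, at 1.55, 0.393 and 0.358 CPM in the CAST libraries, and at 3.45, 0.793 and 0.804 CPM in the 129 libraries. The 3 lines overlapped in both genes. No comparison of either passed, with adjusted p from 0.510 to 0.964. The log2 fold change of Tnnt1 was 1.40 ± 0.98 in the hybrid against CAST, 0.07 ± 0.92 in the hybrid against 129 and −1.33 ± 0.96 in CAST against 129 (SE). Without hybrid 2 the values were 0.17 in the hybrid against CAST and −1.20 in the hybrid against 129 (edgeR adjusted p = 0.974 and 0.600), and without both CAST 1 and hybrid 2 the value in the hybrid against CAST was 0.89 (0.666). For Tnni1 the values were 0.40 ± 1.07, −0.78 ± 1.02 and −1.18 ± 1.03 (SE), and without hybrid 2 the first of these was −1.14 (adjusted p = 0.770).

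The alkali light chains Myl1 (chromosome 1, 66924295 to 66945404), of fast skeletal muscle, and Myl4 (chromosome 11, 104550663 to 104595753), of atrium and embryonic muscle, sit on the myosin neck. Myl1 stood at 0.141, 2.52 and 0.489 CPM in hybrid 1, 2 and 3, at 0.723, 0.337 and 0.0717 CPM in CAST 1, 2 and 3, and at 4.06, 1.34 and 1.78 CPM in 129 1, 2 and 3. All CAST libraries were below all 129 libraries, and the hybrid overlapped both. The log2 fold change of Myl1 in CAST against 129 was −2.70 ± 1.07 (SE, edgeR adjusted p = 0.292). It was 1.42 ± 1.10 in the hybrid against CAST and −1.28 ± 1.003 in the hybrid against 129 (SE, adjusted p = 0.657 and 0.442), and −2.89 in the hybrid against 129 without both CAST 1 and hybrid 2 (adjusted p = 0.0864). The value in the hybrid against CAST was −0.14 without hybrid 2 and 0.60 without both of those libraries. Another annotated gene, Mylf-ps on chromosome 12, carries 242 of the 1033 stretches of 50 bases of the Myl1 transcript (23.4%). Mylf-ps is not among the genes of the deposited count matrix, so it has no counts here.

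Myl4 was the light chain with the most reads. It stood at 1.84, 6.43 and 2.94 CPM in hybrid 1, 2 and 3, at 3.41, 1.52 and 0.860 CPM in CAST 1, 2 and 3, and at 5.11, 2.07 and 2.76 CPM in 129 1, 2 and 3. The 3 lines overlapped, and hybrid 2 was the highest of all libraries. The log2 fold changes were 0.95 ± 0.68 in the hybrid against CAST, 0.15 ± 0.67 in the hybrid against 129 and −0.80 ± 0.67 in CAST against 129 (SE, edgeR adjusted p = 0.620, 0.895 and 0.562). The value in the hybrid against 129 was −0.47 without hybrid 2.

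**Figure D2:**
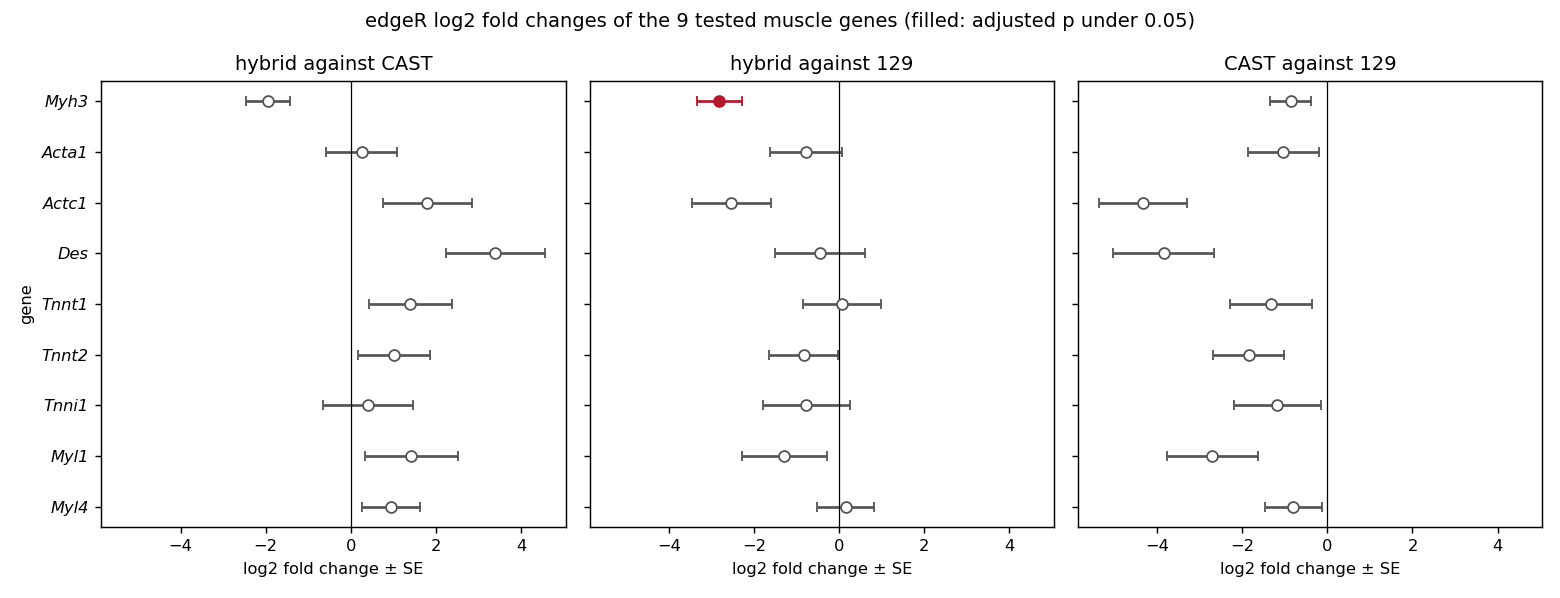
edgeR log2 fold change of the 9 tested muscle genes (rows) with its standard error (whiskers), for the hybrid against CAST, the hybrid against 129 and CAST against 129; filled points have an adjusted p under 0.05. The single filled point is Myh3 in the hybrid against 129, at −2.81, and all 9 values in CAST against 129 are below 0.

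Set side by side, the 3 comparisons share libraries pairwise, so their values are not independent of each other. Nor are the genes independent. Of the 36 pairs among the 9 tested muscle genes, 35 had a Pearson's r above 0 over the libraries, with a median of 0.662. In CAST against 129, 0 of the 9 tested muscle genes were called, where 0.526% of all tested genes were called lower and 0.391% higher. edgeR gave 3 of them an unadjusted p under 0.05, all lower (Actc1, Des and Myl1; 5.81% of all tested genes were lower and 8.77% higher at that level), DESeq2 called 2 lower (Des and Actc1) and limma-voom called 0. The median log2 fold change was −1.33, against 0.06 over all tested genes, and −2.23 without CAST 1. The libraries of CAST lay wholly below those of 129 in 4 of the 9 (Des, Actc1, Tnnt2 and Myl1), as they did in 13.5% of all tested genes, and wholly above in 0 (15.2%). Between the hybrid and CAST, 8 of the 9 log2 fold changes were positive, as were 6735 of all 14839 tested genes, and Myh3 was negative. The median was 1.02 against −0.08 over all tested genes. Hybrid 2 carried the count of 8, since without it 4 of the 9 were positive and the median was −0.135. Without both CAST 1 and hybrid 2, 6 were positive and the median was 0.60. edgeR called 0 of the 9 (4.41% of all tested genes were called higher and 1.6% lower), with Des higher (9.84%) and Myh3 lower (5.99%) at an unadjusted p under 0.05. The libraries did not overlap in 1 gene, Myh3, lower in the hybrid (8.57%), and in 0 higher (10.7%). DESeq2 called Des higher and Myh3 lower, and limma-voom called 0. All shares of tested genes here are from edgeR, and none is given for DESeq2 or limma-voom. Against 129, 7 of the 9 hybrid values were negative, as were 7307 of all 14839 tested genes. The median was −0.78 against 0.02 over all tested genes. Without hybrid 2 all 9 were negative and the median was −2.38. Myh3 and Actc1 had an unadjusted p under 0.05, both lower (7.68%), and 0 were higher (14.6%).

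**Figure D3:**
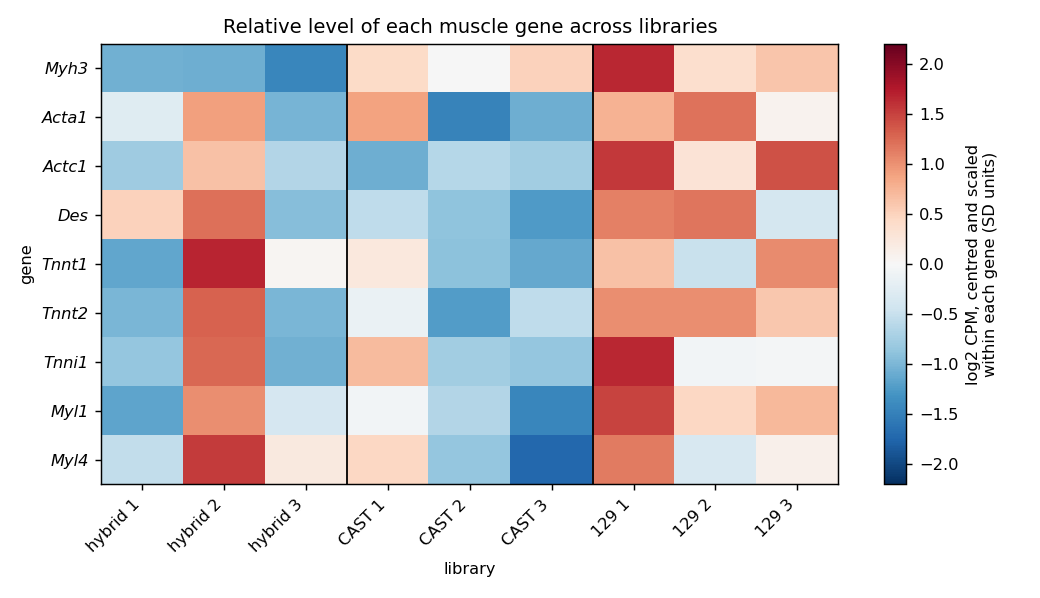
Relative level of the 9 tested muscle genes (rows) in each of the 9 libraries (columns; hybrid, CAST and 129 separated by lines), as log2 CPM centred and scaled within each gene in SD units, red above and blue below the gene's mean. The mean over the 9 genes was 1.23 in 129 1 and 0.942 in hybrid 2, and lowest at −0.920 in CAST 3; Myh3 is the row in which hybrid 2 is below the mean.

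Averaged over the 9 tested genes, the scaled level was −0.698, 0.942 and −0.691 in hybrid 1, 2 and 3, 0.0971, −0.818 and −0.920 in CAST 1, 2 and 3, and 1.23, 0.402 and 0.460 in 129 1, 2 and 3. All 129 libraries, hybrid 2 and CAST 1 were above 0, and the other libraries were below it. Among the genes outside the 10, Mylpf, the regulatory light chain of fast skeletal muscle, followed this profile most closely over the 9 libraries, of the genes with a mean of at least 1 CPM. Its likeness, given as Pearson's r over 9 libraries and as a description of the best match among all genes ranked, was 0.974. Mylpf stood at 1.94 ± 1.71 CPM in the hybrid, 0.894 ± 0.836 CPM in CAST and 3.78 ± 2.36 CPM in 129 (SD, n = 3 each). The next were Cpb1 (0.938), Irf7 (0.917), Car13 (0.912), Bst2 (0.909), N6amt1 (0.895), Prim2 (0.879) and Tmem173 (0.877). Below that level, Cacna1s, the calcium channel of skeletal muscle in the list of coupling genes, had an r of 0.918 at a mean of 0.807 CPM. All of these values share the libraries and their depth.

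Myogenic regulators and fusion genes were tested as a further list of 13, of which 8 passed the filter. edgeR called 0 in each of the 3 comparisons (at an unadjusted p under 0.05 there were 0, 2 lower and 0 in the hybrid against CAST, the hybrid against 129 and CAST against 129, where 7.68% of all tested genes were lower in the hybrid than in 129; DESeq2 called 0, 1 lower and 0, and limma-voom 0 in each). Myf5, a determination factor of myoblasts, had 0 counts in all 9 libraries, where a count of 0 allows up to 3 counts, or 0.167 to 0.419 CPM depending on the library; this limit covers counting error only. Myod1, the other determination factor, had 2 counts in the hybrid, 2 in CAST and 40 in 129, of which 30 were in 129 1. Not every member was highest in 129. The tested fusion gene Mymk was highest in CAST, with 38 counts in the hybrid, 68 in CAST and 42 in 129. Its means were 1.21 ± 0.657, 1.59 ± 0.437 and 0.79 ± 0.906 CPM in these lines (SD, n = 3 each). Pax7, below the filter, had 24 counts in the hybrid, 22 of them in hybrid 2, 6 in CAST and 23 in 129. Its mean CPM was highest in the hybrid, at 1.07, against 0.123 in CAST and 0.440 in 129. Mef2a and Mef2d, partners of the myogenic factors that neurons also express, had the highest levels of the list. Mef2a averaged 68.8 ± 62.4 CPM in the hybrid, 71.6 ± 60.9 CPM in CAST and 129.7 ± 13.99 CPM in 129, and Mef2d averaged 78.6 ± 47.3 CPM in the hybrid, 79.4 ± 25.6 CPM in CAST and 107.7 ± 8.70 CPM in 129 (SD, n = 3 each).

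Of 30 other sarcomere genes, 20 were tested, and edgeR called 1 of them, Mybph, higher in the hybrid than in CAST and than in 129. That is a share near the background, since 4.41% and 5.41% of all tested genes were called higher in these comparisons. DESeq2 and limma-voom also called Mybph in both, and both called Mybpc1, another myosin-binding protein, lower in the hybrid than in CAST (edgeR log2 fold change −2.68 ± 0.71, SE, adjusted p = 0.0607). Mybph, a myosin-binding protein of skeletal muscle, stood at 10.7, 10.5 and 16.8 CPM in hybrid 1, 2 and 3, at 0.723, 0.393 and 0.287 CPM in CAST 1, 2 and 3, and at 3.39, 0.488 and 1.15 CPM in 129 1, 2 and 3. It was higher in every hybrid library than in any other, the opposite order to Myh3. The log2 fold change was 4.78 ± 0.78 against CAST and 2.91 ± 0.69 against 129 (SE, edgeR adjusted p = 0.00560 and 0.0339). The call against CAST held without each single library, and that against 129 ended without hybrid 1 (adjusted p = 0.0501), hybrid 2 (0.0627), hybrid 3 (0.102), CAST 2 (0.0526), 129 2 (0.104) and 129 3 (0.149). Without single libraries the value against 129 lay between 2.47 (without 129 2) and 3.92 (without 129 1). Of the exonic bases of Mybph, 49.9% overlap Adora1 on the other strand, and the sources used here do not say whether counting used strand. Adora1, an adenosine receptor gene, ran the other way, at 24.0 to 60.9 CPM in the hybrid, 65.6 to 83.5 CPM in CAST and 74.3 to 151.6 CPM in 129. The median log2 fold change of the 20 genes was 0.97 in the hybrid against CAST, 0.17 in the hybrid against 129 and −0.40 in CAST against 129. In CAST against 129 edgeR called 0 of them (1 higher and 4 lower had an unadjusted p under 0.05, against 8.77% and 5.81% of all tested genes; DESeq2 called 1 higher and 1 lower and limma-voom 0).

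Genes of excitation-contraction coupling and of the muscle endplate, where the motor axon meets the fibre, formed a list of 19 with 11 tested. Chrna1, an acetylcholine receptor subunit of muscle, was the 1 gene of the 11 that edgeR called, higher in the hybrid than in CAST (4.41% of all tested genes were). In that comparison the libraries did not overlap in 1 gene higher in the hybrid, Chrna1 (10.7% of all tested genes). They also did not overlap in 2 that were lower, Dok7 and Sgca (8.57%). The median log2 fold change of the 11 was 0.605. limma-voom also called Chrna1, and DESeq2 called Chrna1 and Trdn, a protein of the calcium release complex (edgeR log2 fold change 4.20 ± 1.66, SE, adjusted p = 0.241). Chrna1 stood at 2.26, 3.35 and 1.33 CPM in hybrid 1, 2 and 3, at 0.516, 0.225 and 0.215 CPM in CAST 1, 2 and 3, and at 2.61, 0.976 and 1.15 CPM in 129 1, 2 and 3. The log2 fold change was 2.87 ± 0.69 (SE, edgeR adjusted p = 0.0381), on 75 counts in the hybrid and 12 in CAST. The call ended without hybrid 1 (adjusted p = 0.0774), hybrid 2 (0.0883), CAST 2 (0.155), CAST 3 (0.160), 129 2 (0.0646) and 129 3 (0.0648), and without both CAST 1 and hybrid 2 (0.0676). It also ended with the replicate number as a block (adjusted p = 0.0723), with no filter on low counts (0.0516) and with only the 2 groups compared (0.0747). edgeR called 0 members in each of the other comparisons (0 and 1 lower at an unadjusted p under 0.05 in the hybrid against 129 and in CAST against 129, with 5.81% of all tested genes lower in the second; DESeq2 called 0 and 1 lower, and limma-voom 0).

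Cardiac genes numbered 17, of which 13 were tested, and edgeR called 0 in each comparison, with limma-voom also at 0. At an unadjusted p under 0.05, 1 was higher in the hybrid than in CAST (Tbx5; 9.84% of all tested genes were). In the hybrid against 129, 4 were lower (Gata4, Gata6, Hand2 and Ryr2; 7.68%). In CAST against 129, 3 were lower (Gata4, Gata6 and Hand2; 5.81%). DESeq2 called 0, 2 lower (Gata6 and Hand2) and 1 lower (Gata6). The most abundant were Ryr2, the calcium release channel of heart that neurons also use, and Tbx20, a factor of heart and hindbrain motor neurons. Ryr2 averaged 28.4 ± 9.36 CPM in the hybrid, 50.4 ± 29.7 CPM in CAST and 81.5 ± 52.1 CPM in 129, and Tbx20 averaged 8.94 ± 6.39 CPM in the hybrid, 12.1 ± 10.2 CPM in CAST and 17.4 ± 5.98 CPM in 129 (SD, n = 3 each). Nkx2-5, Myh6, Myl2 and Pln, which fell below the filter, had at most 8, 13, 4 and 4 counts in any library. Other members of the list that passed it were read more. Tnni3, Myl3, Mybpc3, Myl7, Nppa and Nppb reached 47, 31, 25, 15, 19 and 295 counts in their highest libraries. The transcription factors Gata4, Gata6 and Hand2 reached 412, 437 and 476, each in a 129 library. Over the 13 tested genes the median log2 fold change was 0.09 in the hybrid against CAST, 0.19 in the hybrid against 129 and −0.52 in CAST against 129.

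The smooth muscle and fibroblast lists summed to far more than the muscle genes. The 8 smooth muscle genes summed to 1382 to 18830 CPM in the hybrid, 2507 to 8123 CPM in CAST and 1449 to 7385 CPM in 129. The 14 fibroblast and mesenchyme markers summed to 1762 to 39500 CPM in the hybrid, 1035 to 10220 CPM in CAST and 7648 to 31170 CPM in 129. The 9 motor neuron markers summed to 633.8 to 1487 CPM in the hybrid, 729 to 3457 CPM in CAST and 529.2 to 1948 CPM in 129. Most of the motor neuron sum came from Prph and Ret, with means over the 9 libraries of 966.7 and 233.5 CPM. Slc5a7, Slc18a3, Isl1 and Chat averaged 89.34, 58.07, 32.15 and 11.43 CPM, and Mnx1, Isl2 and Lhx3 averaged 2.39, 1.46 and 0.668 CPM. Tcf21 was at 0 in CAST 3 and Lhx3 at 0 in hybrid 1, and no other fibroblast or motor neuron marker was at 0 in any library. The smooth muscle sum was highest in hybrid 2 and CAST 1 within their lines, as were the sums of the 10 muscle genes, and it was lowest in hybrid 3 and 129 3, where Des was also lowest within its line. The list was not uniform in this. Myh11, Lmod1 and Smtn, with the most exonic bases of the list (7599, 3948 and 4380), were highest in hybrid 1 among hybrid libraries. In CAST they were lowest in CAST 1, at 10.4, 23.7 and 22.5 CPM. The part of transcript length in this was not tested. The fibroblast sum was lowest in CAST 1 of all libraries. The part of smooth muscle cells or fibroblasts in the levels of the muscle genes was not tested.

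**Figure D4:**
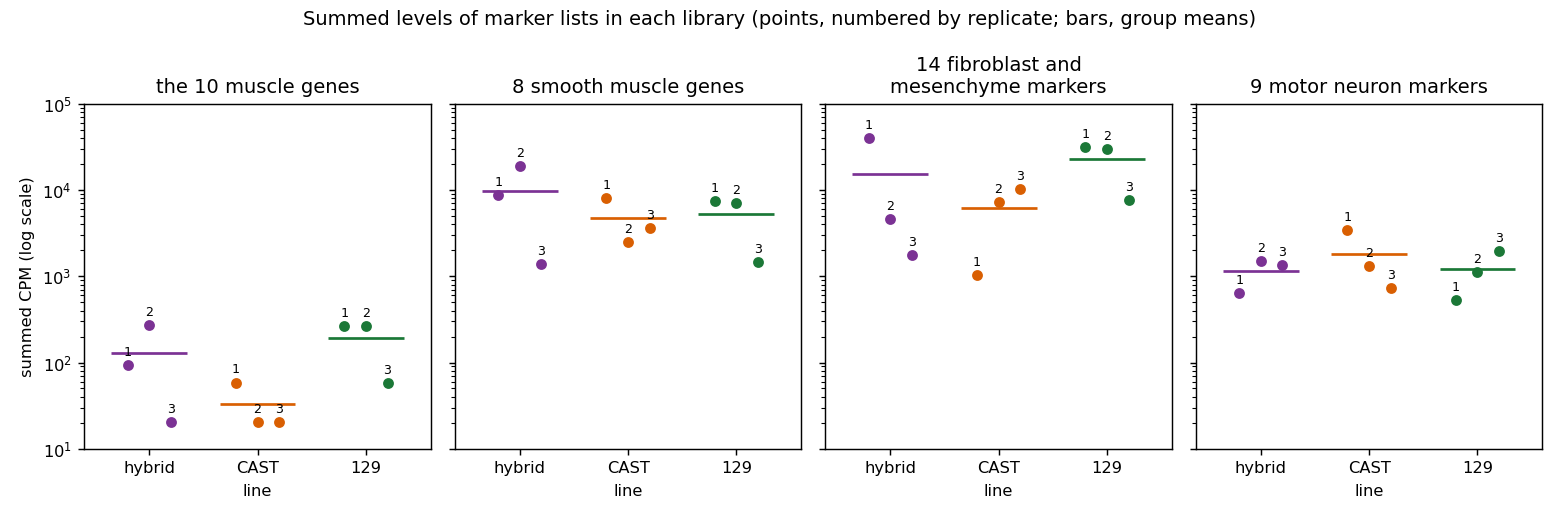
Summed CPM (log axis) of the 10 muscle genes, 8 smooth muscle genes, 14 fibroblast and mesenchyme markers and 9 motor neuron markers in the hybrid, CAST and 129 libraries; points are libraries numbered by replicate and bars are group means. The muscle genes summed to between 20.5 and 273.4 CPM, at least an order of magnitude below the smooth muscle genes in every library.

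Of these lists edgeR called 0 members in each comparison. The most abundant members were Acta2 and Tagln for smooth muscle, Fn1 and Col1a1 for fibroblasts and Prph and Ret for motor neurons. Over the smooth muscle list the median log2 fold change was 0.97 in the hybrid against CAST, 0.63 in the hybrid against 129 and −0.25 in CAST against 129. At an unadjusted p under 0.05 in edgeR there were 0, 0 and 1 lower, and 5.81% of all tested genes were lower in CAST than in 129. DESeq2 and limma-voom called 0. Over the fibroblast markers the median was 1.39, −0.16 and −2.19. At an unadjusted p under 0.05 in edgeR, 6 were higher, 2 higher and 5 lower, against 9.84%, 14.6% and 5.81% of all tested genes in those directions. DESeq2 called 5 higher, 1 higher and 4 lower and limma-voom 0. Over the motor neuron markers the median was −0.53, −0.80 and −0.61, with 0, 1 lower and 0 at an unadjusted p under 0.05 in edgeR. Of all tested genes, 7.68% were lower in the hybrid than in 129 at that level. DESeq2 called 0, 1 lower and 0 of the motor neuron markers and limma-voom 0. No share of all tested genes is given for DESeq2 or limma-voom, so their counts are not set against a background.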

How the data were processed

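The deposited matrix holds raw read counts per Ensembl gene, with no normalization by the authors that the values show. Per the submitters' processing notes, STAR and the build mm10 were used; which counter, annotation and strand option they used is not given in the sources used here. Per the labels' protocols, RNA was column-purified, DNase-treated, poly-A selected and primed with random hexamers. Column names were matched to sample titles by line and number, taking the number after the letter B as the replicate. The labels list 11 samples; CAST 7 and CAST 8 were not analysed here.

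Symbols, coordinates, exon lengths and transcript sequences came from GENCODE vM21 (GRCm38, the assembly also called mm10), which need not be the annotation used for counting; 27030 of 27071 gene IDs had a symbol. Genes were filtered with filterByExpr (minimum count 10, minimum total 15), which kept 14839. After TMM scaling, edgeR 4.0.16 (R 4.3.3) fitted a quasi-likelihood model with robust dispersion to all 3 lines at once with no covariates. P-values are two-sided and Benjamini-Hochberg adjusted over all tested genes. Shares of all tested genes are from this main edgeR fit, and none is given for DESeq2, limma-voom or the other alternatives. Standard errors come from the quasi-likelihood F statistic. Alternatives were DESeq2 1.42.0, limma-voom (limma 3.58.1), DESeq2 size factors, no filter, leaving out libraries, 2-group fits, a replicate block and a per-library trend on exon length as an offset. The code was tested on simulated counts with the same fixed dispersion for all genes and no length dependence. That test checks the code and not how the methods perform at the replicate spread of these libraries.

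The 10 genes, the 7 further lists and the tests were chosen with earlier results of these data known. Named genes were the 10, up to 3 called members per list and direction in each comparison (otherwise the 2 most abundant), and the 8 genes (mean of at least 1 CPM, named, not Y-linked) whose log2 CPM (prior count 2) followed the mean scaled profile of the tested 9 most closely. Myh1, Myh2, Myh4, Myh8, Myh13, Adora1, Mylf-ps, Myf5, Myod1, Mymk, Pax7, Nkx2-5, Myh6, Myl2, Pln, Tnni3, Myl3, Mybpc3, Myl7, Nppa, Nppb, Myh11, Lmod1, Smtn, Tcf21, Lhx3, Mnx1, Isl1, Isl2, Chat, Slc18a3, Slc5a7, Mybpc1, Trdn and Cacna1s lie outside this rule and were named after their values were seen. Gata4, Gata6, Hand2, Tbx5, Dok7 and Sgca also lie outside this rule and were named after their values were seen. Every per-sample column of the matrix was used.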

Additional observations from a re-analysis of the deposited data

How the results depend on the processing

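Each comparison was repeated under 17 alternatives; Actc1, Tnnt1, Tnni1 and Myl1 fell below the filter in the hybrid against CAST with only the 2 groups compared and have no value there. The number of muscle genes called lower in the hybrid against 129 was 1, from 0 to 2 when single libraries were left out, 3 without both CAST 1 and hybrid 2 and 2 with the exon length offset. In CAST against 129 it was 0, from 0 to 1 without single libraries, 2 with DESeq2 and 1 with the exon length offset. In the hybrid against CAST it was 0, from 0 to 1 without single libraries, and DESeq2 called 1 lower and 1 higher. Over the 7 further lists, members called in the hybrid against CAST numbered 2, from 1 to 5 without single libraries, 9 with DESeq2, 1 without both CAST 1 and hybrid 2 and 1 with only the 2 groups compared. In the hybrid against 129 they numbered 1, from 0 to 3 without single libraries, 6 with DESeq2, and 2 with no filter, without both CAST 1 and hybrid 2, with only the 2 groups, with the replicate block or with the offset. In CAST against 129 they numbered 0, 8 with DESeq2 and 1 with the offset. The share of all tested genes called under each alternative is not given. A change in these counts therefore cannot be told from a change in calls among all genes.

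Signs turned only for values that edgeR did not call. Without single libraries, log2 fold changes in the hybrid against CAST ran from −0.55 to 1.68 for Acta1, from −0.51 to 1.45 for Tnnt2, from −1.14 to 1.31 for Tnni1 and from −0.14 to 2.12 for Myl1. In the hybrid against 129 they ran from −1.20 to 0.55 for Tnnt1, from −0.47 to 0.59 for Myl4, from −2.38 to 0.28 for Tnni1 and from −1.72 to 0.069 for Des. Without both CAST 1 and hybrid 2, Tnnt2 and Tnni1 were at −0.17 and −0.20 in the hybrid against CAST, and Tnnt1 and Myl4 at −1.20 and −0.47 in the hybrid against 129. Tnnt1 in the hybrid against 129 was also negative with limma-voom (−0.37), no filter (−0.0144), the replicate block (−0.056) and the offset (−0.73). The libraries whose absence turned a sign were hybrid 2, CAST 2 or CAST 3 for Acta1, hybrid 2 for Tnnt2, Tnni1 and Myl1 in the hybrid against CAST, and, in the hybrid against 129, hybrid 2 or 129 2 for Tnnt1 and Myl4, 129 1 for Tnni1 and hybrid 3 for Des. The cause was not tested. Of 9 same-number pairs of libraries, 2 had deviations from their group means correlated above 0.1 (range −0.72 to 0.49), so the numbers were not taken to pair libraries; with the replicate block, 1 muscle gene was called lower in the hybrid against 129 and 0 in each of the other comparisons. Of the 10 genes, 8 averaged at most 6.03 CPM over the 9 libraries, and the part of depth in their spread was not tested.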
